A study of Mus musculus with 16 samples.

Results

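Stromal cells of mouse bone marrow were examined here for 10 genes of the cartilage and tendon lineages: the transcription factors Sox9, Sox5, Sox6 and Scx, the matrix proteins Comp, Cilp and Cilp2, the secreted factor Cytl1, and the membrane proteins Snorc and Tnmd. They were taken by gene symbol from a table of 52459 genes, whatever their values. Of the 10, 9 stood under their current symbol and 1, Snorc, under the older symbol 3110079O15Rik, which RefSeq lists as its synonym. The cells had been sorted as live singlets without CD45, Ter119 and CD31 and with CD51 and CD140a. Both groups were Townes sickle mice, in which human globin genes replace the mouse ones. All of them carry human alpha globin. SS mice are homozygous for human sickle beta globin, with a human A-gamma globin gene described on that allele, and are the model of sickle cell disease. SA mice, the controls, pair a human sickle beta allele with a human wild-type one. The design asks how these stromal cells differ between the genotypes. There were 4 libraries per genotype, each sequenced on 2 lanes. The labels give neither ages nor whether animals were pooled.

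Chondrocytes are specified by SOX9, which acts with SOX5 and SOX6 on enhancers of cartilage matrix genes such as Col2a1 and Acan. Tenocytes are specified by scleraxis, the product of Scx, which activates Tnmd. Marrow stromal cells share a skeletal origin with both lineages, and the sort used here has no antigen that is restricted to cartilage or tendon.

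Some facts of the libraries touch every result below. Total counts ran from 24797857 to 31117007 per library. The sorted antigens were present: Pdgfra, which encodes CD140a, lay between 169 and 481 CPM (a gene's reads divided by the library total, scaled to 1e+06 with edgeR's TMM factors), and Itgav, which encodes CD51, between 252 and 820 CPM. Ptprc, which encodes the gated-out CD45, was still at 748 and 735 CPM in SA replicates 1 and 2 and at 499 CPM in SS replicate 1, against 49.7 to 209 CPM in the other libraries. All 15 pan-leukocyte markers had lower means in SS, with summed levels of 847 to 5289 CPM in SA and 380 to 3198 CPM in SS, and none of them was at 0. SS replicate 2 stood apart in another way. It had 57347 Xist counts against at most 420 elsewhere, and 12 counts of the Y-linked Ddx3y against at least 2282. By these transcripts SS replicate 2 reads as female and all the other libraries as male. Its library name also carries a date-like number that no other library has, while all SA libraries share a number that no SS library has, so these numbers cannot be told apart from genotype. In bulk samples, fewer cells of a type and less RNA per cell cannot be told apart. No label says outright that each library is a different animal, and if any share one the p-values describe spread that is partly technical.

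The 10 genes differed widely in level. Divided by the length of their exons, the medians over the 8 libraries were 18.5 CPM per kb for Comp, 2.53 for Sox6, 2.10 for Sox9, 0.233 for Sox5, 0.212 for Cytl1, 0.177 for Tnmd, 0.103 for Cilp2, 0.0526 for Scx, 0.00787 for Cilp and 0 for Snorc. Comp had the highest median, and its lowest library (7.92 CPM per kb) lay above the highest library of Sox6, the next in the order (4.37). Sox6 and Sox9 overlapped, with ranges of 2.10 to 4.37 and 1.07 to 4.66 CPM per kb, and so did each further pair of neighbours in the order. Cytl1 and Snorc were low by their medians, but single libraries reached 10.5 CPM per kb for Cytl1, above the 3 lowest Comp libraries, and 6.54 for Snorc, above every library of Sox9 and Sox6.

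**Figure D1:**
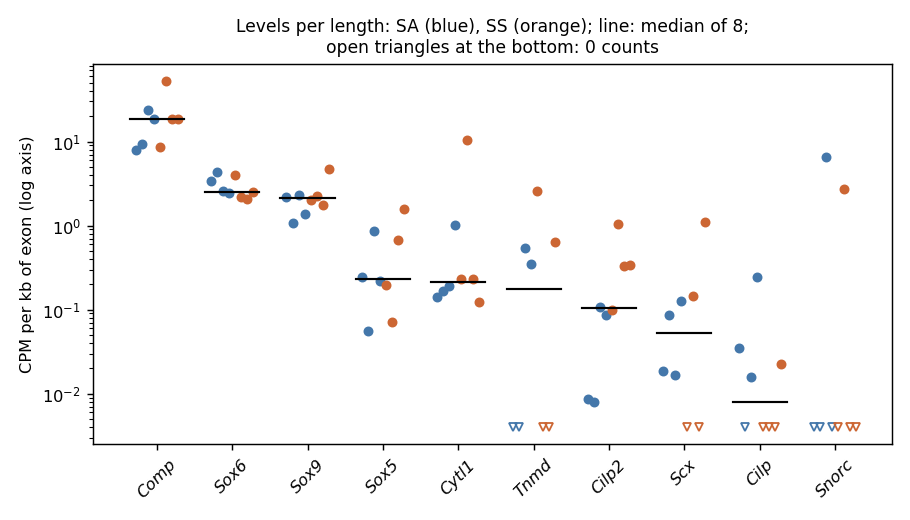
Level of each gene in CPM per kb of exon (log axis) in the 8 libraries, SA in blue and SS in orange, with a line at the median and open triangles for libraries with 0 counts. Comp is the only gene whose 8 points all lie above those of the next gene in the order, and Snorc has points in 2 libraries alone.

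No difference between SS and SA in these genes passed the test. The low-count filter kept 6 of them (Sox9, Sox5, Sox6, Comp, Cilp2 and Tnmd) and left out Cilp, Cytl1, Snorc and Scx. By edgeR's quasi-likelihood test, adjusted over the 17316 genes kept, 0 of the 6 passed, and 0% of all genes did. By DESeq2 0 of the 6 passed as well, where 0.77% of all genes with an adjusted p did. At an unadjusted p under 0.05 by edgeR there was 1 of the 6, Cilp2, beside 6.98% of all genes. No member kept the genotypes apart: 0 of 6 were without overlap, beside 3.91% of all genes. The fitted means of 5 were higher in SS and that of Sox6 was lower, among all genes of which 49% were higher.

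**Figure D2:**
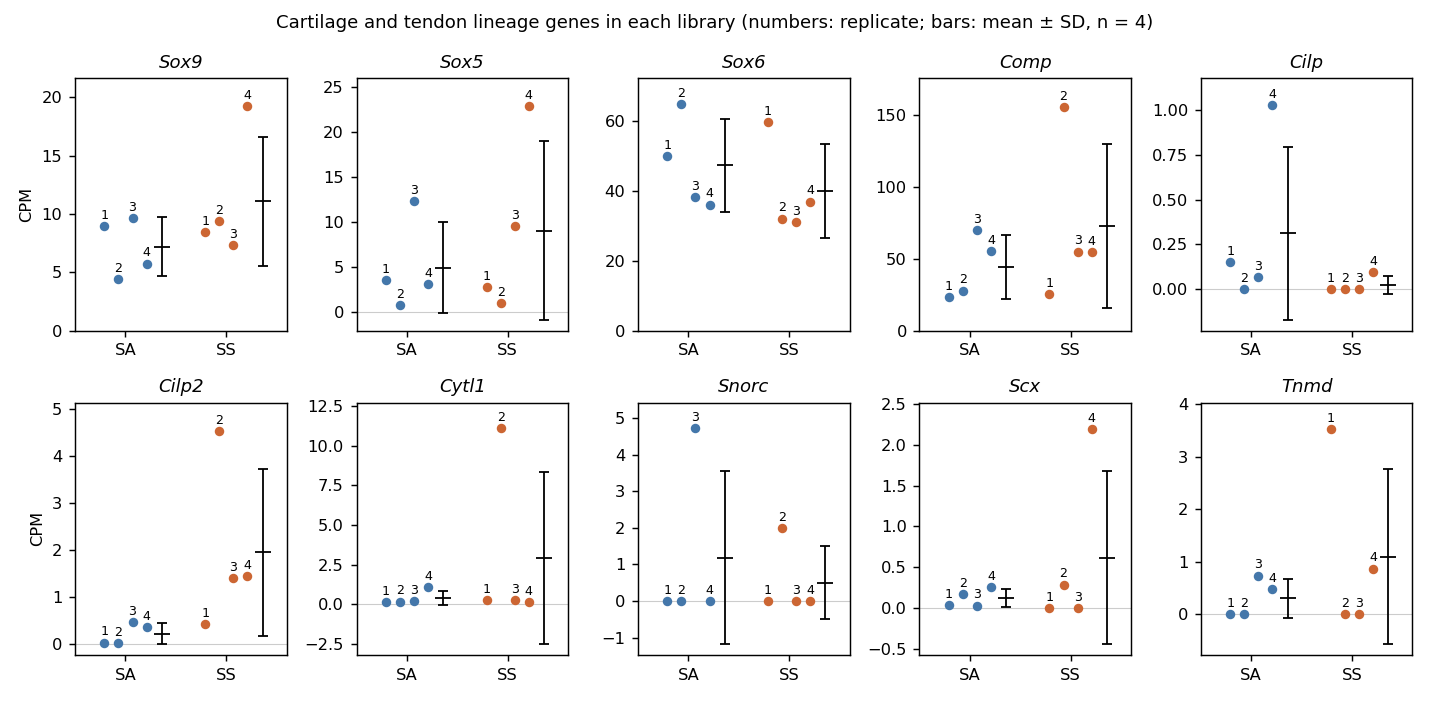
CPM of the 10 genes in each library, SA in blue and SS in orange, with replicate numbers above the points and the mean ± SD of 4 libraries in black. In 7 of the 10 panels the highest point is an SS library: replicate 2 in 3, replicate 4 in 3 and replicate 1 in 1. Over all genes tested these libraries were highest for 15.6%, 10.5% and 8.22%. The genotypes overlap in each of the 10 panels.

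Sox9, the master regulator of chondrocyte fate, lies on GRCm38 chromosome 11 (112782224 to 112787760). In replicate order it was at 8.99, 4.41, 9.67 and 5.74 CPM in SA and at 8.42, 9.38, 7.31 and 19.3 CPM in SS. SS replicate 4 stood above all others, and the remaining 3 SS libraries fell within the SA range. SA averaged 7.2 ± 2.53 CPM and SS 11.1 ± 5.52 CPM (SD, n = 4 each), and edgeR put the log2 ratio of SS to SA, called the log2 fold change throughout, at 0.62 (SE 0.51, adjusted p = 0.819). It was 0.22 without SS replicate 4 and 0.27 with a leukocyte score (the mean log2 CPM of the pan-leukocyte markers) as a covariate.

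Sox5, a partner of SOX9 that lacks an activation domain of its own, lies on chromosome 6 (143828425 to 144781977). It was at 3.53, 0.799, 12.3 and 3.16 CPM in SA and at 2.82, 1.01, 9.58 and 22.8 CPM in SS. The spread within each genotype was wider than the gap between them: SA replicate 3 and SS replicates 3 and 4 were high, and the lowest library of each genotype was near 1 CPM. The log2 fold change was 0.87 with an SE of 1.0 (edgeR adjusted p = 0.883), and it turned to -0.15 without SS replicate 4 and to -0.14 with the leukocyte covariate. Without SA replicate 3 it was 1.85. The antisense gene Sox5os1 covers 9.3% of the Sox5 exon bases, and its own counts were 24 in SS replicate 4 and 0 in the others. It is not stated whether counting used strand, so reads from this stretch may belong to either gene.

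Sox6, the close paralog of Sox5, lies on chromosome 7 (115470872 to 116038796). It was at 49.97, 64.9, 38.2 and 36.1 CPM in SA and at 59.7, 32.0, 31.1 and 36.9 CPM in SS. The 3 highest values belong to SA replicates 1 and 2 and SS replicate 1, the libraries richest in leukocyte transcripts, and the other 5 lay between 31.1 and 38.2 CPM. SA averaged 47.3 ± 13.2 CPM and SS 40.0 ± 13.4 CPM. By edgeR the log2 fold change was -0.24 (SE 0.31) and the adjusted p 0.895. It lay between -0.50 and -0.05 with each library left out, and was 0.12 with the leukocyte covariate. The part of leukocyte RNA in the Sox6 values was not tested further. The Sox trio did not share an order of libraries: Sox6 was highest in SA replicate 2, where Sox9 and Sox5 were both lowest.

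Comp, the pentameric thrombospondin-family protein of cartilage and tendon matrix, lies on chromosome 8 (70373558 to 70382066). It was at 23.5, 27.9, 70.0 and 55.3 CPM in SA and at 25.5, 156, 55.0 and 54.7 CPM in SS. Its libraries fell into the reverse of the Sox6 pattern, with the same 3 leukocyte-rich libraries at 23.5 to 27.9 CPM and the others at 54.7 CPM or more. SS replicate 2, with 4296 counts, was far the highest. SA averaged 44.2 ± 22.3 CPM and SS 72.7 ± 57.0 CPM, for which edgeR gave 0.72 as the log2 fold change (SE 0.53, adjusted p = 0.792). The difference rested on SS replicate 2, without which the log2 fold change was 0.03. With the leukocyte covariate it turned to -0.25.

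Cilp2, a cartilage intermediate layer protein, lies on chromosome 8 (69880369 to 69887687) and had the largest fitted difference of the 6. In replicate order SA had 1, 1, 14 and 10 counts of it and SS had 12, 125, 40 and 45. Only SS replicate 1 overlapped the SA libraries, and SS replicate 2 was the highest. Cilp2 passed the low-count filter by way of its SS libraries, since SA replicates 1 and 2 had 1 count each, so its fold change is a description only. SA averaged 0.227 ± 0.224 CPM and SS 1.95 ± 1.78 CPM. The log2 fold change was 3.08 (SE 1.26), with an unadjusted p of 0.0333 and an adjusted p of 0.695 by edgeR, and an adjusted p of 0.324 by DESeq2. Over all the other settings tried the log2 fold change stayed between 1.74 and 3.69, with 2.25 without SS replicate 2. Cilp, its paralog on chromosome 9 (65265180 to 65280605), was nearly silent in these cells, with 4, 0, 2 and 28 counts in SA and 0, 0, 0 and 3 in SS. A library with 0 counts allows up to 3 counts, which is 0.0967 to 0.113 CPM here, by counting error alone.

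**Figure D3:**
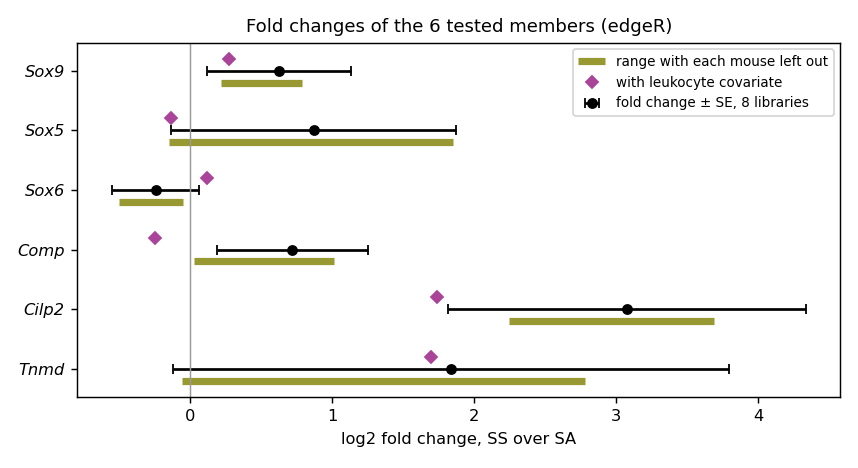
Log2 fold change of SS over SA with its SE for the 6 genes tested (black), the range with each library left out (olive) and the value with the leukocyte score as a covariate (purple). Cilp2 alone stays above 1 under all of these, while the ranges of Sox5 and Tnmd cross 0 and the covariate values of Sox5, Sox6 and Comp lie on the other side of 0.

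Cytl1, a small secreted protein of chondrocytes, lies on chromosome 5 (37735519 to 37739820) and owed most of its counts to 1 library. It had 306 counts (11.1 CPM) in SS replicate 2, 29 counts (1.07 CPM) in SA replicate 4 and 4 to 7 counts in each of the other 6. Snorc, a transmembrane proteoglycan of cartilage, lies on chromosome 1 (87470271 to 87475482). It had 141 counts (4.72 CPM) in SA replicate 3, 55 counts (1.99 CPM) in SS replicate 2 and 0 in the other 6 libraries. Both genes were therefore found in libraries of each genotype, but with more than 10 counts in 2 libraries alone.

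Scx lies on chromosome 15 (76457452 to 76459458) inside the span of Bop1, a ribosome biogenesis gene on the opposite strand, with no exon base in common. It had 1, 5, 1 and 7 counts in SA and 0, 8, 0 and 68 counts in SS. SS replicate 4 stood at 2.19 CPM, and the next library, SS replicate 2, at 0.290 CPM. Bop1 was highest in these same libraries in the reverse order, with 713 counts for SS replicate 4 and 986 for SS replicate 2. SS replicate 1 had 580 Bop1 counts and 0 Scx counts. Bop1 was itself higher in SS without overlap (log2 fold change 1.26, SE 0.41, edgeR adjusted p = 0.695), where 3.91% of all genes were without overlap in either direction. Whether Bop1 reads add to the Scx count was not tested. Tnmd, the tenomodulin gene on chromosome X (133850980 to 133865577), had 0, 0, 22 and 13 counts in SA and 100, 0, 0 and 27 in SS. It was highest in SS replicate 1 (3.52 CPM), a library with 0 Scx counts, and was at 0 in SS replicate 2, which held 8. The log2 fold change of Tnmd was 1.84 (SE 1.96, edgeR adjusted p = 0.868) and -0.06 without SS replicate 1. It was -1.04 without the 3 leukocyte-rich libraries, of which that replicate is 1. Of 10 skeletal muscle markers, summed at 12.1 to 25.3 CPM in SA and 3.80 to 44.7 CPM in SS, Myh4, Pax7 and Myod1 were at 0 in every library. The highest sum, in SS replicate 3, was mostly Des (41.2 CPM), which pericytes and smooth muscle also express. Ckm, the muscle creatine kinase, was at 1.58 CPM in SA replicate 1 and 0.986 CPM in SS replicate 1, with the other 6 at 0.290 CPM or below. SS replicate 1 was the library highest in Tnmd, but its sum over the muscle list was low, at 11.7 CPM. SA replicate 1, highest in Ckm, had 0 Tnmd counts and a sum of 24.1 CPM. The part of muscle RNA in the Scx and Tnmd counts was not tested.

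The promoter stretches of Cytl1 and Tnmd are shown as a cartilage and a tendon example of genes with most of their counts in 1 library. RefSeq sequences (GRCm38.p6) of 6 of the 10 genes were used. The sequences run from 250 bases before the RefSeq start on the plus strand, at chr5:37735269-37735518 for Cytl1 and chrX:133850758-133850979 for Tnmd, where the last 28 bases are left out because GENCODE places them in the gene. Capitals mark matches to ACAANG or its reverse complement CNTTGT, the core of sites bound by SOX factors.
Cytl1: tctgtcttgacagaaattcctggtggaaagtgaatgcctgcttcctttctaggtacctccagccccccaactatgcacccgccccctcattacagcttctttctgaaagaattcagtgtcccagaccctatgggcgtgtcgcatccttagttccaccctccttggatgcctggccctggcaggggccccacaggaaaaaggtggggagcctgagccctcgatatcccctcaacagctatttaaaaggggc
Tnmd: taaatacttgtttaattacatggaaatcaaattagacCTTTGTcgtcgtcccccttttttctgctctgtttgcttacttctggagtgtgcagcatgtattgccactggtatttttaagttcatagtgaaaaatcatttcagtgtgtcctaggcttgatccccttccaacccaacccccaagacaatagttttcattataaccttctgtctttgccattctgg

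Cytl1 held 0 matches to the SOX core and Tnmd held 1, where 36.3% of 32851 promoter windows of 250 bases held at least 1. Neither window held the E-box CANNTG that scleraxis and other basic helix-loop-helix factors bind, which 66.2% of the windows did. Among the windows not shown, Cilp held 3 E-boxes and Cilp2 held 1, both with 0 SOX cores, and Sox5 held 0 E-boxes and 1 SOX core. The 6 windows of Sox6 held 1 to 3 E-boxes and 0 to 4 SOX cores each. The windows of Cilp2 and Sox5 lie inside the span that GENCODE gives these genes, and those of Sox6 lie inside it wholly or in part. They precede RefSeq starts that GENCODE places within the gene, and no bases were left out of them. The 32851 windows were not checked for this. These letters describe the window and say nothing of binding elsewhere.

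The wider cartilage matrix genes showed which libraries held such transcripts. Of 21 genes in the list (collagens II, IX, XI and XXVII, aggrecan, matrilins, link protein and others), 19 had more than 3 counts somewhere. Of the 9 that passed the low-count filter, 4 were highest in SS replicate 2 and 3 in SA replicate 3, where over all genes tested the shares were 15.6% and 10.9%. Of the 10 others, 7 were highest in SS replicate 2, but such genes are counted here through the library in which they are high, so that number is a description only. Col2a1, the main cartilage collagen, was present in every library, at 50.9, 124, 354 and 272 CPM in SA and at 24.5, 412, 67.9 and 64.3 CPM in SS. Other defining genes, named here after their values were seen, were by far highest in SS replicate 2: Acan (aggrecan) reached 31.9 CPM there and no more than 4.10 CPM elsewhere, Hapln1 (link protein) 58.9 against at most 0.221 CPM, and Chad (chondroadherin) 69.0 against at most 0.736 CPM. Col9a1, a collagen IX chain, was at 13.3 CPM there, at 0.951 CPM in SS replicate 1 and at 0 in the other 6. Not all genes below the filter were highest there: Col9a2, another collagen IX chain, was highest in SA replicate 1, and Cnmd and Epyc in SA replicate 3. SS replicate 2 was also the library highest in Comp, Cilp2 and Cytl1, which is a description only, since the matrix genes named here were picked by their values. It was not the library highest in Sox9 (SS replicate 4), and its Sox5 level, 1.01 CPM, was the second lowest.

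**Figure D4:**
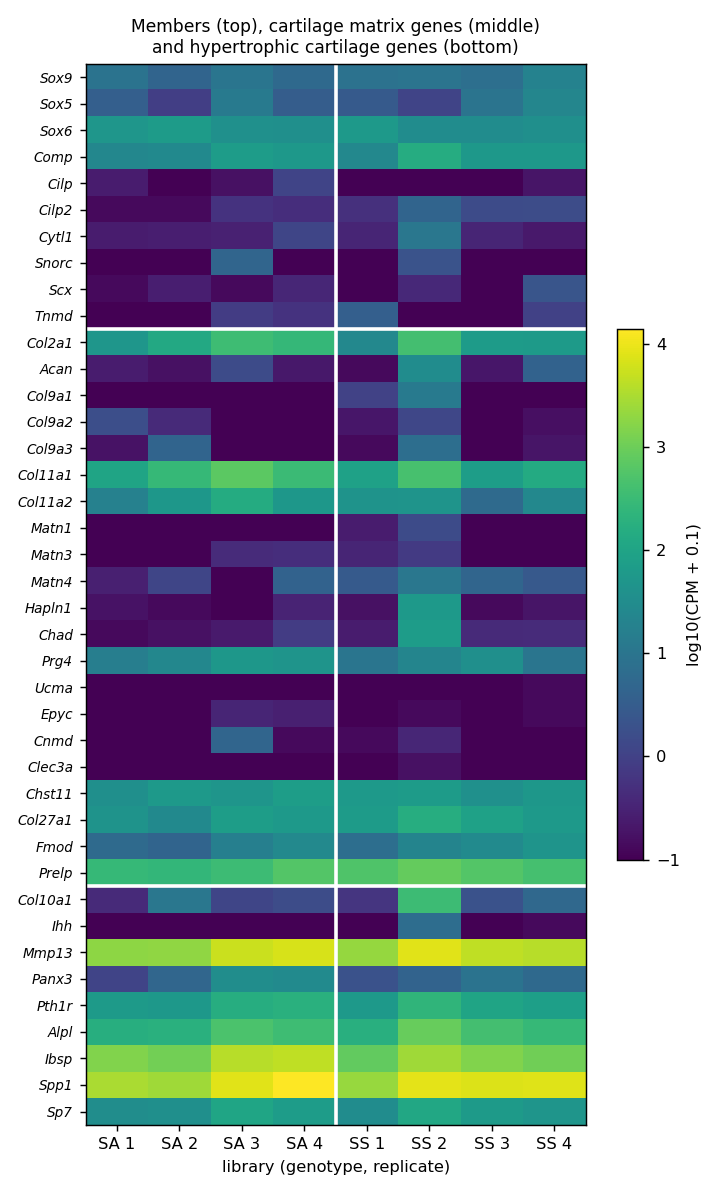
Colour gives log10(CPM + 0.1) in the 8 libraries for the 10 genes (top), 21 cartilage matrix genes (middle) and 9 hypertrophic cartilage genes (bottom). SS replicate 2 is brighter than the other libraries for Acan, Hapln1, Chad, Col10a1, Ihh and Cytl1, and SA replicate 3 for Snorc and Cnmd.

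The cartilage matrix list was split between the genotypes. Of the 9 that were tested, 5 were higher and 4 lower in SS, 0 passed, and the median log2 fold change was 0.005, beside -0.01 over all genes tested. Those with the smallest p were Prelp, a leucine-rich matrix protein, at 364 and 600 CPM in SA and SS (log2 fold change 0.72, SE 0.31), Col27a1 at 51 and 93.0 CPM (0.87, SE 0.38), Col11a2 at 67.7 and 29.8 CPM (-1.19, SE 0.67) and the lubricant Prg4 at 34.5 and 19.3 CPM (-0.83, SE 0.52), with edgeR adjusted p-values from 0.695 to 0.766. The median depended on the filter, since genes seen in few libraries enter without it: it was 0.72 over 21 genes without a filter and 0.80 over the 14 with a mean of at least 1 CPM. Without SS replicate 2 it was -0.11. Col11a2 was at -0.48 and Prg4 at -0.55 without SA replicate 3, Prg4 at -1.33 without SS replicate 3 and Col27a1 at 0.49 without SS replicate 2. Leaving out the 3 leukocyte-rich libraries gave -2.0 for Col11a2 and 0.42 for Prelp.

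Among 19 cartilage regulators 14 were tested, 8 higher and 6 lower in SS, with a median of 0.03 and 0 passing. Without SS replicate 2 the split was 4 and 10, with a median of -0.12. Of the 14, 2 were without overlap in all 8 libraries, beside 3.91% of all genes. Gdf5, a joint-forming BMP-family ligand, was without overlap, at 0.226, 0, 0.0669 and 0.368 CPM in SA and at 0.705, 1.92, 3.82 and 2.10 CPM in SS. Its log2 fold change by edgeR was 3.66 (SE 1.30, adjusted p = 0.695). The log2 value stayed between 3.17 and 4.40 over the other settings tried. Gdf5 passed the low-count filter through its SS libraries, and SA replicates 2 and 3 lie under the limit of 3 counts. Its lack of overlap and its fold change are therefore a description only. Arid5a, a partner of SOX9, had its highest SS library below its lowest SA library (means 38.3 and 27.5 CPM, -0.48, SE 0.26, adjusted p = 0.747). Arid5b (135 and 192 CPM, 0.50, SE 0.22) and Zbtb20 (528 and 708 CPM, 0.42, SE 0.24) had adjusted p-values of 0.695 and 0.752 and overlapped. Without the 3 leukocyte-rich libraries Arid5a was at -0.73 and Zbtb20 at 0.10, and with the leukocyte covariate Arid5b was at 0.30.

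Of 9 genes of hypertrophic cartilage 6 were highest in SS replicate 2, among them Ihh, which did not pass the filter. Over all genes tested the share was 15.6%. Panx3 was highest in SA replicate 3, and Ibsp and Spp1 in SA replicate 4. The list sum was also highest in SA replicate 4, at 25702 CPM against 21068 CPM in SS replicate 2. Col10a1, the collagen of hypertrophic chondrocytes, was at 0.301, 10.7, 1.07 and 1.44 CPM in SA and at 0.528, 333, 1.87 and 5.42 CPM in SS. SS replicate 2 set its log2 fold change of 4.66 (SE 1.88, edgeR adjusted p = 0.695), which was -0.36 without that library. Ihh, the growth plate ligand and not tested, had 189 counts in SS replicate 2, 1 in SS replicate 4 and 0 in the other 6. Of the 8 tested genes 5 were higher in SS with a median of 0.07 and 0 passing, and without SS replicate 2 0 of 8 were higher (median -0.37). With the leukocyte covariate 1 of 8 was higher (median -0.62). Many of these genes also serve osteoblasts. Panx3 (17.1 and 5.15 CPM, -1.73, SE 0.91), Ibsp (2733 and 1487 CPM, -0.88, SE 0.48) and Alpl (299 and 440 CPM, 0.56, SE 0.50) had adjusted p-values from 0.747 to 0.835. Panx3 was at -0.94 by limma-voom, Ibsp at -1.48 with the leukocyte covariate and -0.54 without SA replicate 4, and Alpl at -0.24 with the covariate. Summed over 12 osteoblast markers, levels were 6146 to 24402 CPM in SA and 4549 to 17930 CPM in SS, none at 0, and the lowest sums were again in SA replicates 1 and 2 and SS replicate 1.

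Of 29 tendon and ligament genes 25 were tested, 18 higher and 7 lower in SS, where 49% of all genes were higher. The median log2 fold change was 0.49 and 0 passed by edgeR. By DESeq2 4 passed, beside 0.77% of all genes, and the same 4 were the ones without overlap, beside 3.91%, all higher in SS: the fibrillar collagen Col3a1 (356 and 1428 CPM, log2 fold change 2.0, SE 0.36), Thbs2, a matricellular thrombospondin (85.2 and 261 CPM, 1.61, SE 0.38), the small leucine-rich protein Aspn (32.9 and 132 CPM, 2.01, SE 0.49) and the fibril-associated collagen Col12a1 (772 and 2184 CPM, 1.5, SE 0.37). DESeq2 adjusted p-values were 0.000102, 0.0145, 0.0123 and 0.0218, and edgeR gave 0.295 to 0.523. These are matrix genes of fibroblasts in general. Kera, Chodl and Fgf5, also in the list, had 0 counts in all 8 libraries. With the leukocyte covariate the list median was 0.01, with 13 of 25 higher, and Thbs2 was at 0.93. Leaving out the 3 leukocyte-rich libraries gave 0.21. Among 11 fibroblast and periosteum markers, none at 0, summed levels were 841 to 2172 CPM in SA and 1125 to 2790 CPM in SS. Of the 10 tested, 7 were higher and 3 lower in SS, with a median log2 fold change of 0.29. Of these 10, 4 were without overlap, beside 3.91% of all genes, and 3 passed by DESeq2, beside 0.77%. All 10 pericyte and smooth muscle markers were higher in SS, with a median log2 fold change of 1.12 and 3 passing by DESeq2, and their sums did not overlap (1066 to 1443 CPM in SA, 2030 to 7384 CPM in SS, none at 0). Their median was 0.59 without SS replicate 4 and 0.70 with the leukocyte covariate, each with 8 of 10 higher. The part of either cell type in the tendon list was not tested.

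The genes whose levels most resembled those of the 4 members above 5 CPM were found by Pearson's r of log2 CPM over the 8 libraries among 10701 genes, as a description. For Comp they were Alpl (r = 0.985), mt-Nd4 (0.973) and Tmem59 (0.968). Sox6 was nearest to Nsd2 (0.972), Ulbp1 (0.963) and H2-DMa (0.961), Sox9 to Ercc3 (0.952), Ndufv2 (0.932) and Yeats2 (0.926), and Sox5 to Aqr (0.956), Podn (0.946) and Hic2 (0.935). None of these neighbours is itself among the 10 genes. The points share library depth and leukocyte content.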

How the data were processed

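The authors deposited raw counts of reads per gene symbol, 1 column for the 2 lanes of each library. Per the submitters' processing notes, STAR, featureCounts, DESeq2 and bcl2fastq were used, on mm10 (GRCm38), with no versions. The gene annotation and whether counting used strand are not stated there. SS replicate 4 was kept in SS by its title, although other labels of 1 of its lanes read SA. A scaled copy of the table was not used.

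The test was edgeR's robust quasi-likelihood F test (edgeR 4.0.16, R 4.3.3) after filterByExpr and TMM, with Benjamini-Hochberg adjustment over 17316 genes, threshold 0.05. The SE is the log2 fold change divided by the root of F. log2 CPM used a prior count of 2. DESeq2 1.42.0 and limma-voom (3.58.1) were alternatives. The scripts were tested on simulated data. Positions and exon lengths are from GENCODE M21 (GRCm38).

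The 10 genes, the lists and the tests were chosen with earlier results of these data known. Named are all 10 genes, up to 4 genes per pathway list with the smallest p, and the 3 genes most correlated with each member of at least 5 CPM. Marker lists of B cells, neutrophils, endothelium, pericytes and Lepr-positive stroma were also summed (closing section). The limit of 3 counts covers counting error alone, because PCR copies were not collapsed by molecular identifiers as far as the labels say.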

Additional observations from a re-analysis of the deposited data

Results flagged for a closer look

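In 7 of 20 genotype groups of 4 libraries, 1 library lay far from the other 3 by Dixon's criterion on CPM. Chance gives about 1 in 20 for normally distributed values, and counts near 0 are not distributed in that way. Cytl1 was at 11.1 CPM in SS replicate 2 where the remaining SS libraries had 0.129 to 0.247 CPM, and at 1.07 CPM in SA replicate 4 against 0.150 to 0.201 CPM. Snorc was at 4.72 CPM in SA replicate 3 and at 1.99 CPM in SS replicate 2, with 0 counts in the other 3 libraries of each genotype. Scx was at 2.19 CPM in SS replicate 4 against at most 0.290 CPM. Cilp was at 1.03 CPM in SA replicate 4 against at most 0.150 CPM, and at 0.0967 CPM in SS replicate 4, which is 3 counts and thus at the counting limit.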

How the results depend on the processing

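The count of genes called was 0 by edgeR and stayed 0 under other scalings, a filter at a mean of 1 CPM, limma-voom, the leukocyte covariate and leaving out the 3 leukocyte-rich libraries. It was 5 with no low-count filter and 129 by DESeq2, and was 0 to 1 with each library left out. At an unadjusted p under 0.05 there were 1209 genes. None of the 6 members tested passed under the settings tried. Cilp, Cytl1, Snorc and Scx, fitted only with no filter, had edgeR adjusted p-values of 0.544, 0.503, 0.887 and 0.639 there. Signs turned for Sox5 (-0.14 with the leukocyte covariate, -0.15 without SS replicate 4), Sox6 (0.12 with the covariate), Comp (-0.25 with the covariate) and Tnmd (-1.04 without the 3 leukocyte-rich libraries, -0.058 without SS replicate 1). Among the pathway genes they turned for Col10a1 (-0.36 without SS replicate 2) and Alpl (-0.24 with the covariate, -0.068 without SS replicate 2). With each library left out the log2 fold change ranged from -0.15 to 1.85 for Sox5, -0.058 to 2.78 for Tnmd, -0.36 to 6.50 for Col10a1 and -0.068 to 0.89 for Alpl. The cause was not tested. The cartilage matrix median moved to 0.72 with no filter and 0.80 at a mean of 1 CPM, where more genes are tested. Tnmd was not kept at a mean of 1 CPM. With the longest transcript as length, the mean of Sox6 was 5.03 CPM per kb in place of 2.94 and that of Sox5 0.967 in place of 0.487.

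Same-numbered libraries did not deviate together (correlations across genes 0.222, -0.15, -0.02 and 0.143), so the numbers were not taken as pairs. With the replicate number as a block 0 genes were called, and Comp was at 0.50, Sox5 at 0.55 and Tnmd at 0.79.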

Other observations

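The marker lists of other cells separated the libraries as follows. B cell markers (11 genes, none at 0) summed to 468 to 676 CPM in SA and 343 to 394 CPM in SS, neutrophil markers (11 genes) to 5774 to 33408 and 1270 to 16000 CPM, and endothelial markers (10 genes) to 15.9 to 126 and 13.3 to 125 CPM. The library with the highest pericyte and smooth muscle sum, SS replicate 4 at 7384 CPM, was also the library highest in Sox9, Sox5 and Scx. That is a description only, and 10.5% of all genes tested were highest there. The part of pericyte RNA in these 3 genes was not tested. Lepr stromal markers (11 genes) summed to 15242 to 33161 CPM in SA and 23571 to 32631 CPM in SS.

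Mkx, a tendon transcription factor named after its values were seen, reached 51.3 CPM in SS replicate 3, where the other 7 libraries had 5.16 to 12.7 CPM, while Scx and Tnmd had 0 counts in SS replicate 3. Cnmd, which encodes chondromodulin and is the paralog of Tnmd, had 4.72 CPM in SA replicate 3 and at most 0.253 CPM elsewhere, so that the libraries highest in Cnmd, in Tnmd and in Mkx were 3 different ones.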
